A study of Mus musculus with 36 samples.

Results

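The G2 and mitosis genes described here encode the cyclins, kinases, checkpoint proteins, kinetochore and spindle components, chromosome proteins and cytokinesis factors that carry a cell from the end of DNA replication through division. They were chosen by name, as the rows of the expression table that bear 1 of 52 gene symbols, with the kinesins left out. All 52 were found among 19909 genes. RNA was measured in 36 poly(A) RNA libraries from C57BL/6 mice aged 8 weeks. Flow cytometry sorted 8 populations from the brain subependymal zone (SEZ), the stem cell niche beside the lateral ventricles, into 28 libraries. They are labelled qNSC, pNSC, aNSC and NPC1 (4 libraries each) and NPC2, NB1, NB2 and Other (3 libraries each). The names are usually read as quiescent, primed and activated neural stem cells, neural progenitors and neuroblasts although the labels do not spell them out. The sources used here do not give the gates. The other 8 libraries, labelled DFFDA_H and DFFDA_L (4 each), came from SEZ neurosphere cells at passage 4, kept floating in culture with EGF and FGF, loaded with the fluorescent dye DFFDA and sorted 4 days later. No group carries a genetic change, and the labels do not say whether the replicates of a group came from separate animals or cultures, so a p-value here sets a difference against the spread of these libraries, which may be technical.

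Mitosis is driven by CDK1 bound to A- and B-type cyclins, which CDC25 phosphatases switch on. Spindle checkpoint proteins hold back the anaphase-promoting complex (APC/C) until every chromosome is attached, after which CDC20 and UBE2C direct the destruction of cyclin B and securin and free separase to part the sister chromatids. Most of these genes are transcribed in G2 under MuvB complexes with B-MYB (Mybl2) and FOXM1, and the DREAM complex keeps them low in resting cells. In the adult SEZ, quiescent stem cells divide rarely, while activated stem cells, progenitors and early neuroblasts divide often.

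Promoter sequences from RefSeq (GRCm38.p6) were matched by symbol for 44 of the 52 genes, as windows of 300 bases from 250 before to 50 after the transcription start. The cell cycle genes homology region, the site through which MuvB complexes are known to reach such promoters, was searched as TTTGAA or TTCGAA on both strands, and the CCAAT box as CCAAT on both strands; the homology region and the CCAAT box can share bases. The 44 genes had 47 windows, and a gene was counted when any of its windows held the letters. The homology region letters were in 32 of 44 genes (72.7%, against 21.7% of 27025 genes), CCAAT in 34 (77.3% against 41.1%) and both in 30 (68.2% against 8.61%). A homology region match began within 50 bases of the start in 65.9% of the 44 genes and 6.12% of all genes, a window set after seeing the data. In the 250 bases before the start alone, the share with the homology region was 43.2%, against 19.6% of all genes. E2F sites, searched as TTTGGCGC, TTTCCCGC, TTTGCCGC or TTTCGCGC on both strands, were in 3 of 44 genes (6.82% against 2.6%). Birc5, Mad2l1, Mybl2, Ncaph, Nuf2, Nusap1, Pttg1 and Tacc3 held neither the homology region letters nor CCAAT. The bases just after the start were found in an annotated transcript of the gene for 34 of 47 windows. Some windows may thus not sit at the annotated start, and letters absent from a window may lie outside it. A match is a description of letters, not of a bound site.

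Stretches from 120 bases before to 30 bases after the start are shown for 7 genes whose levels moved with most of the others, followed by Cdc25b and Nde1, which were not low in qNSC as most of the others were, and Mybl2, which encodes a MuvB partner. Capitals mark the homology region and CCAAT letters on either strand, and each sequence runs 5′ to 3′ along the gene's own strand. The positions are chr9:70421525-70421674 (minus strand) for Ccnb2, chr11:40733408-40733557 (minus strand) for Hmmr, chr1:189688057-189688206 (minus strand) for Cenpf, chr11:99024160-99024309 (minus strand) for Top2a, chr15:99651627-99651776 (minus strand) for Racgap1, chr7:122159315-122159464 (plus strand) for Plk1, chr7:135716350-135716499 (minus strand) for Mki67, chr2:131186828-131186977 (plus strand) for Cdc25b, chr16:14163155-14163304 (plus strand) for Nde1 and chr2:163054515-163054664 (plus strand) for Mybl2.
Ccnb2: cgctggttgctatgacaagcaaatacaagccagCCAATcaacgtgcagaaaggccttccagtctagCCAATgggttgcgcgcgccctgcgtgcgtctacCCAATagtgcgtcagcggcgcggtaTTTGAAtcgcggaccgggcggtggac
Hmmr: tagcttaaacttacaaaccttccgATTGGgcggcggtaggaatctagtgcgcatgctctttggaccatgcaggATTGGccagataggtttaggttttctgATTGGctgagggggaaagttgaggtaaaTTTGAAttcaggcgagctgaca
Cenpf: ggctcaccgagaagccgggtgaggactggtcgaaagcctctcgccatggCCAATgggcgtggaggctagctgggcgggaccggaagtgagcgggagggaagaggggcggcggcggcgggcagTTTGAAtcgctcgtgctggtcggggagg
Top2a: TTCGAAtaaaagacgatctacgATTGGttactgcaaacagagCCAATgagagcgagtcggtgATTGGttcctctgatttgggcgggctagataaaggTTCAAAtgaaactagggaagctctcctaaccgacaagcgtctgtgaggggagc
Racgap1: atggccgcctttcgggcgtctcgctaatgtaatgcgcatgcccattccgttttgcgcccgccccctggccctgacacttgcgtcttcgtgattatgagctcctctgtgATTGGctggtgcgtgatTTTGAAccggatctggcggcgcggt
Plk1: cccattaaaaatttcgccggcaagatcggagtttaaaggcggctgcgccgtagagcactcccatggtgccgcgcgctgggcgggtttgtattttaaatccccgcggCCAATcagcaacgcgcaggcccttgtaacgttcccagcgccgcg
Mki67: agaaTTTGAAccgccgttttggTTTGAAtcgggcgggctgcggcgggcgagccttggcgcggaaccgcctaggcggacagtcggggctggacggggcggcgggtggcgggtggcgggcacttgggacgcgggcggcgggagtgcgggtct
Cdc25b: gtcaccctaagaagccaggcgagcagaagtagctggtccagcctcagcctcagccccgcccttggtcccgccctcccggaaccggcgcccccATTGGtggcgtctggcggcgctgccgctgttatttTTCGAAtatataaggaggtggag
Nde1: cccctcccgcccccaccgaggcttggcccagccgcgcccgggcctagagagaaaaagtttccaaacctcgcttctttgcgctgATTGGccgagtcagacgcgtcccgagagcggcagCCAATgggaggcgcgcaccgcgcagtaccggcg
Mybl2: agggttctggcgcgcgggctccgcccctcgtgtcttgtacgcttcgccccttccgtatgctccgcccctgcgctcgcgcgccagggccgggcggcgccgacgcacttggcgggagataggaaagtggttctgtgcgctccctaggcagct
In Ccnb2, Hmmr, Cenpf and Racgap1 a homology region match lay close to the start with CCAAT letters before it. Plk1 and Nde1 showed CCAAT letters alone in these stretches, Mki67 held homology region letters far upstream, and Mybl2 held neither. The full window of Plk1 also held TTTGAA from base 31 after the start, just past the stretch shown. That of Nde1 held no homology region letters. Top2a and Cdc25b held both kinds of letters.

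Levels are given as deposited, as log2 values scaled so that every library has nearly the same total and distribution. The members' mean level rose along the labelled sequence from qNSC to NPC2 and was lower again in NB1 and NB2. Averaged over the 52 genes, the log2 level of single libraries ran from 2.15 to 3.34 in qNSC, 4.8 to 6.12 in pNSC, 7.18 to 7.28 in aNSC, 7.56 to 7.68 in NPC1, 7.83 to 7.9 in NPC2, 7.65 to 7.77 in NB1 and 5.46 to 5.51 in NB2. Other stood at 5.08 to 5.19, DFFDA_H at 4.19 to 4.45 and DFFDA_L at 5.67 to 5.92. The populations from aNSC to NB1 thus lay within a narrow band, NPC1 and NB1 overlapping, and qNSC and pNSC varied most between libraries. In bulk samples, fewer dividing cells and less of each transcript per dividing cell cannot be told apart.

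By group mean, 33 of the 52 genes were highest in NPC2, 9 in NPC1, 9 in NB1 and 1, Pttg1, in qNSC. The lowest group was qNSC for 43 genes, DFFDA_H for 7 and NB2 for 2 (Pttg1 and Nde1). Among the 8 fresh populations alone, qNSC was lowest for 48, Other for Cdc25b and Espl1, and NB2 again for Pttg1 and Nde1. The span between the highest and lowest group mean was least in Bub3 (log2 2.24) and greatest in Ccnf (8.11).

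**Figure D1:**
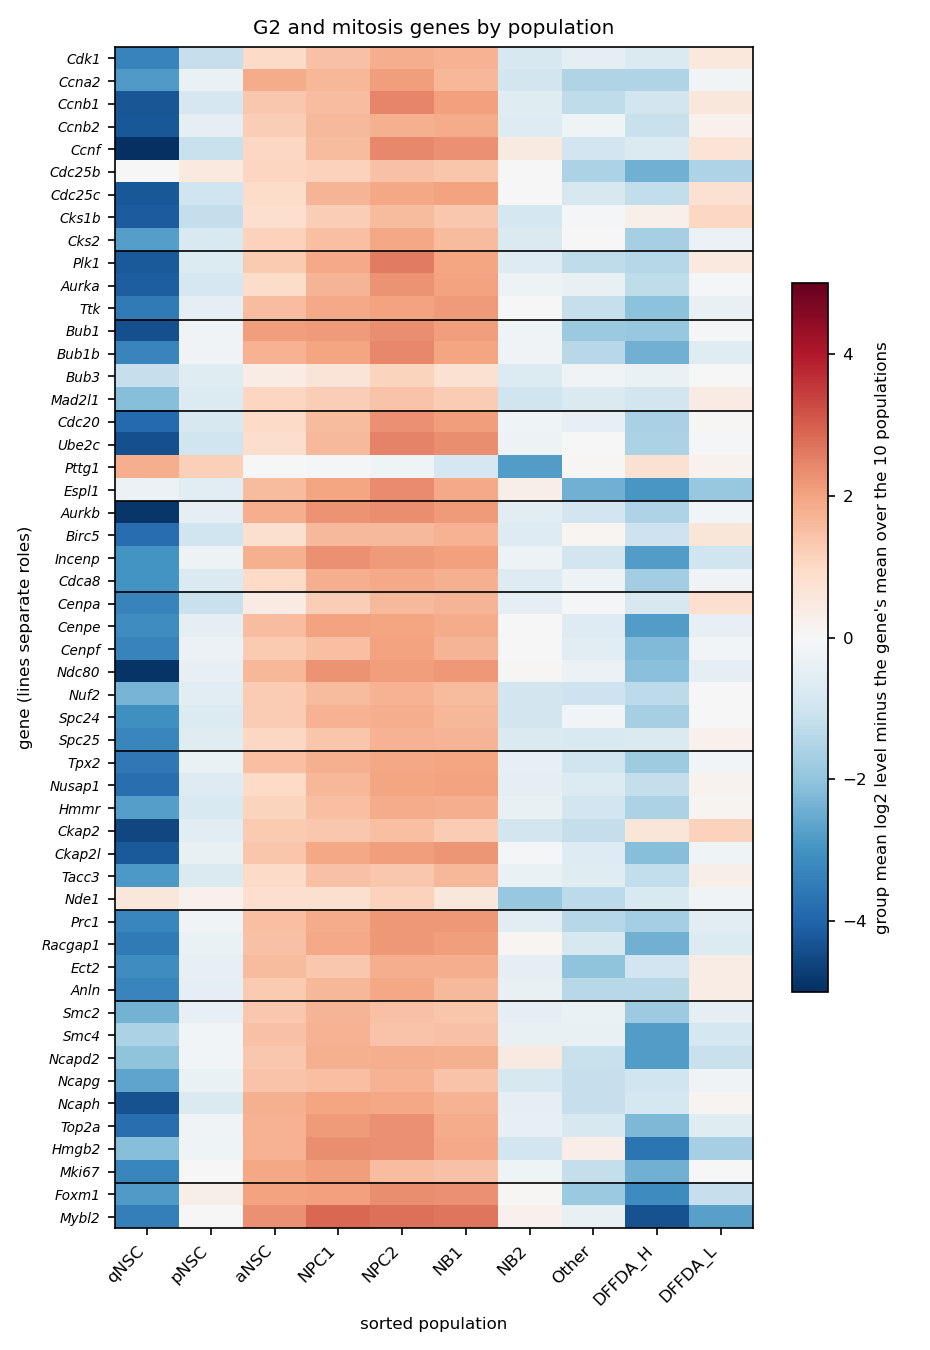
Group mean log2 level of each of the 52 genes (rows, separated by role) minus that gene's mean over the 10 populations (columns), from blue (lower) to red (higher). Most rows run from blue in qNSC through red in aNSC to NB1 and back to pale or blue in NB2, while Pttg1, Nde1 and Cdc25b do not follow them in qNSC.

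The populations differed in how many genes lay at the limit of measurement. Total reads are not given. Genes listed at a library's floor, the lowest value it holds, numbered 1159 to 3932 in qNSC, 1275 to 2319 in pNSC, 617 to 1836 in the other fresh libraries and 362 to 604 in the neurosphere libraries. Of the members, 13 were at the floor in at least 1 qNSC library and none in any other population. Replicate 1 of qNSC stood apart with 3932 floor genes and 11 members at the floor; the fold change of such a gene depends on where the floor lies. Astroglial and stem cell markers (15 genes, summed on the linear scale) reached log2 15.05 to 15.2 in qNSC, 14.97 to 15.18 in pNSC and 11.44 to 12.28 in aNSC, and the 12 neuroblast markers summed to 7.64 to 8.3 in qNSC and 13.53 to 13.57 in NB2. In both neurosphere populations the 12 neuroblast markers summed to 7.67 to 8.18, mostly from Cd24a (group means 7.17 in DFFDA_H and 7.53 in DFFDA_L) and Nrxn3 (5.92 and 5.25). The mean over the 12 was log2 -0.26 in DFFDA_H and -0.26 in DFFDA_L, against 3.74 in qNSC.

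The step from qNSC to pNSC raised 48 of the 52 genes and lowered none (limma, Benjamini-Hochberg adjusted p under 0.05), against 14.2% of all 17788 genes tested called higher and 8.06% called lower. The median change of the 52 was 7.41-fold (log2 2.89), beside a median of -0.05 over all genes. The model gives each gene 1 spread for all 8 fresh populations, and qNSC and pNSC spread most. Their SE and adjusted p values can therefore be smaller than these groups alone would give. With only the groups compared in the fit, 41 of the 52 were called higher and 0 lower, among 1511 called of 15824 genes. The B-type cyclin gene Ccnb1 stood at log2 2.4, 2.1, 1.81 and 2.69 in the 4 qNSC libraries and at 6.16, 5.54, 6.03 and 5.09 in the 4 pNSC libraries. No library of the groups overlapped, and Ccnb1 was 10.9-fold higher in pNSC (log2 3.45, SE 0.176, adjusted p 1.18e-12). Its kinase partner Cdk1 was at 3.23, 2.88, 2.69 and 3.4 in qNSC and 5.96, 4.71, 5.76 and 4.48 in pNSC, 4.51-fold higher (SE 0.235 log2, adjusted p 2.45e-07). The pNSC libraries fell apart in the same order in both genes, replicates 1 and 3 above replicates 2 and 4.

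The kinase genes Plk1 and Aurkb, which drive mitotic entry and chromosome attachment, were at the floor in qNSC replicate 1 and above it in the other 3 qNSC libraries. Aurkb was at the floor of -2.18 in replicate 1 and at 1.94, 1.87 and 1.8 in the others, against 6.09, 4.92, 5.7 and 4.14 in pNSC. Its fitted change, log2 4.35 (SE 0.55, adjusted p 2.73e-06), therefore rests in part on that floor, as do those of Ccnf (4.6, with replicates 1 and 3 at the floor), Ndc80 (4.51) and Bub1 (4.22), the other largest changes. Plk1 ran from -2.18 to 2.95 in qNSC and from 3.84 to 5.74 in pNSC, 11.5-fold higher (adjusted p 0.000322), and missed the threshold with only the groups compared in the fit (0.053, with 1.47e-05 to 0.053 over all alternatives). Without qNSC replicate 1, 48 genes were again called higher, with a median log2 change of 2.65. The cytokinesis genes Prc1, Racgap1, Ect2 and Anln, which organise the central spindle and the contractile ring, all rose, by log2 2.71 to 3.18. Anln was at the floor in qNSC replicate 1 and at 1.49 to 3.12 in the other qNSC libraries, and it missed the threshold with only the groups compared in the fit (adjusted p 0.0859).

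Bub3, Nde1, Pttg1, Cdc25b and Espl1 had the smallest changes in this step. The checkpoint gene Bub3 was already at 6.5, 6.65, 6.75 and 6.63 in qNSC and reached 7.48, 7.04, 7.44 and 6.74 in pNSC, 1.46-fold higher with 1 library of each group overlapping (adjusted p 0.00656). The call of Bub3 ended with library weights (0.0556) and with only the 2 groups fitted (0.0718, the range over alternatives being 0.000433 to 0.0718). Nde1, a centrosome and dynein regulator, stood at 7.66, 7.09, 7.01 and 7.36 in qNSC and 6.65, 6.85, 7.01 and 7.17 in pNSC, a difference of log2 -0.36 that did not pass (adjusted p 0.104). Neither did securin (Pttg1, -0.65, 0.0814), separase (Espl1, -0.28, 0.64) nor the phosphatase gene Cdc25b (0.45, 0.262). Securin and separase form the pair that times chromatid separation, and neither rose with the cyclins here; Pttg1 passed as lower without pNSC replicate 3 (0.045, with 0.045 to 0.272 over the alternatives).

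Neuroblast markers moved in the same direction, with 10 of 12 called higher in pNSC than in qNSC (median log2 1.89) and sums of 7.64 to 8.3 in qNSC and 9.35 to 11 in pNSC. Replicate 1 of pNSC had the highest mean of the 4 pNSC libraries over both the neuroblast markers (6.6) and the members (6.12). From pNSC to aNSC, 2 neuroblast markers were higher and 7 lower while the members rose. Microglia markers went the same way, with 15 genes summing to log2 8.42 to 9.8 in qNSC, 9.26 to 10.16 in pNSC and 8.17 to 8.8 in aNSC and 6 of the 15 called higher in pNSC. In qNSC, 7 of the 15 were at the floor in at least 1 library. Endothelial markers were low in these 3 groups, at 2.17 to 4.1. The summed mural cell markers went from 7.1 to 7.45 in qNSC through 4.78 to 7.27 in pNSC to 2.41 to 3.35 in aNSC. In qNSC and pNSC that sum was mostly Pdgfrb, at group means of log2 7.11 and 5.86, with 0.87 in aNSC. In qNSC Notch3 was at 3.66 and every other mural marker found was at 0.48 or lower. The part of other cell types in the members' change was not tested.

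From pNSC to aNSC, 48 of the 52 genes rose again and Pttg1 fell, against 28.4% of all genes higher and 19.9% lower. The median rise was 3.65-fold (log2 1.87), beside 0.22 over all genes. No member's libraries overlapped between the groups, but the share of all genes without overlap was not counted. Ccnb1 reached 7.87, 7.71, 8.03 and 7.87 in the 4 aNSC libraries, 4.49-fold above pNSC (log2 2.17, SE 0.176, adjusted p 2.12e-10). The proliferation marker Mki67, which coats mitotic chromosomes, went from 7.23, 5.37, 6.39 and 5.33 in pNSC to 7.93, 8.08, 8.0 and 8.09 in aNSC, 3.85-fold higher (adjusted p 1.99e-05). The aNSC libraries lay close together in Mki67 while those of pNSC were spread widely.

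The largest rises were in the condensin gene Ncaph (log2 2.5), Aurkb (2.3) and Bub1 (2.28). Separase took part in this step: Espl1 was at 3.61, 4.19, 2.49 and 3.28 in pNSC and 5.62, 5.55, 4.9 and 6.05 in aNSC, 4.4-fold higher (SE 0.391 log2, adjusted p 6.85e-05). Nde1 rose by log2 0.63 (adjusted p 0.0019) and Bub3 by 0.97 (2.93e-06), again among the smallest changes. Ckap2l (1.73, adjusted p 0.0533), Ttk (2.01, 0.0719) and Cdc25b (0.59, 0.0855) did not pass. With only the groups compared in the fit all 3 passed (0.000371, 0.000409 and 0.0155), the ranges over the alternatives being 3.64e-05 to 0.141 for Ckap2l, 0.000409 to 0.156 for Ttk and 0.0155 to 0.213 for Cdc25b. Ckap2l also passed without pNSC replicate 1 (0.0466). The calls of Plk1 and Mybl2 ended when pNSC replicate 2 (0.0596 and 0.0581) or pNSC replicate 4 (0.0556 and 0.0905) was left out, that of Mybl2 also without aNSC replicate 1 (0.0504); the ranges were 1.77e-05 to 0.0596 and 1.84e-05 to 0.0905.

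Whether pNSC lay midway was tested against the equally weighted mean of qNSC and aNSC. Of the 52 genes, 4 lay above the midpoint (Ccnb1 by log2 0.64, Racgap1 by 0.69, Prc1 by 0.71 and Tpx2, an activator of Aurora A, by 0.71) and 2 below it (Espl1, -1.21, and Nde1, -0.5), against 6.61% and 3.39% of all genes. The median over the members was 0.51 and over all genes -0.05. It was 0.26 without pNSC replicate 1, 0.78 without pNSC replicate 4, 0.34 with values below 0 set to 0 and 0.23 with library weights. None of the 4 stayed above the threshold with only the 3 groups fitted, and neither Espl1 nor Nde1 did with library weights. The count above the midpoint ran from 2 to 10 when single libraries were left out, 10 without pNSC replicate 4.

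**Figure D2:**
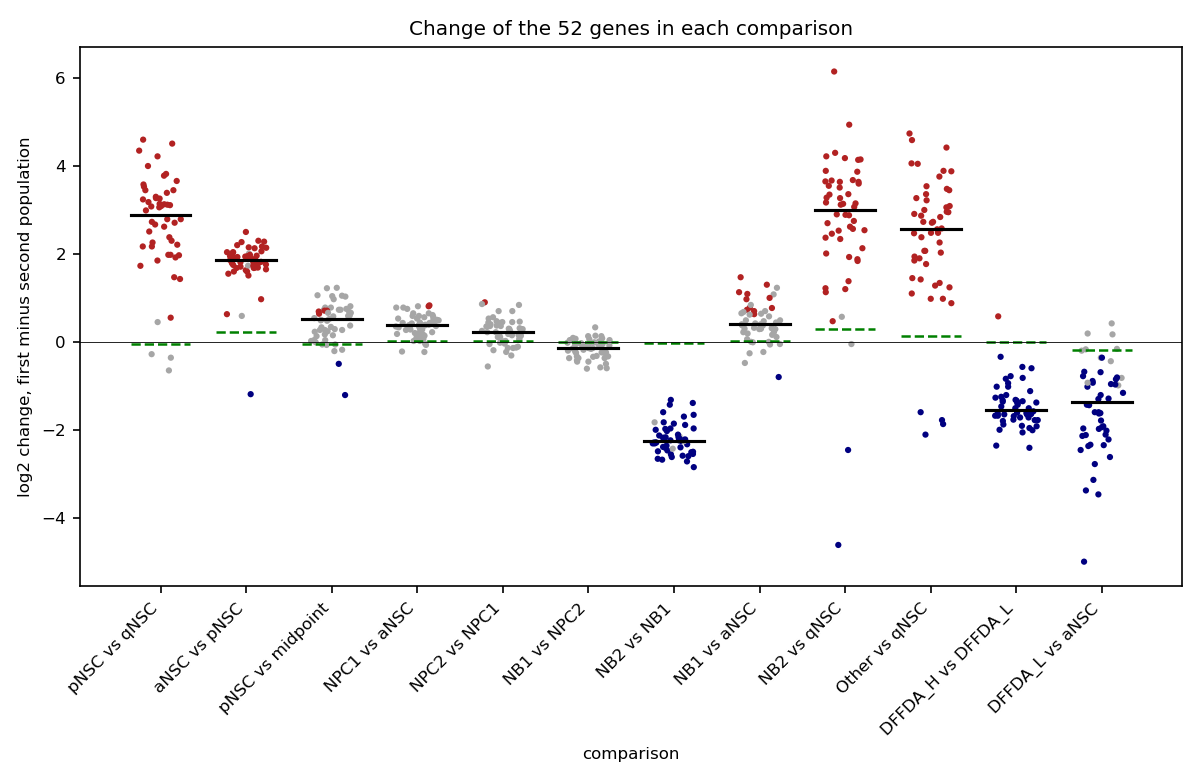
Log2 change of the 52 genes (points) in each of 12 comparisons, with the members' median (black line) and the median over all genes tested (green dashed line); red points were called higher, navy lower and grey neither. The points lie mostly above 0 in the first 2 steps, close to 0 between aNSC and NB1, and all below 0 from NB1 to NB2, and Pttg1 is the low point from qNSC to NB2.

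Among progenitors the changes were small. From aNSC to NPC1, 2 of 52 genes were called higher and 0 lower (Birc5, encoding survivin, 1.76-fold, adjusted p 0.0335, and Cdca8, encoding borealin, 1.78-fold, 0.0136), against 6.24% and 6.48% of all genes. Both belong to the chromosomal passenger complex, which Aurora B needs at centromeres. Its other members listed here, Aurkb (log2 0.42) and Incenp (0.53), did not pass in this fit. Birc5 was at 7.31, 6.82, 7.18 and 6.89 in aNSC and 7.95, 7.87, 7.93 and 7.69 in NPC1, with no overlap. The call of Birc5 ended when any of 6 libraries was left out, at up to 0.106 without aNSC replicate 2, over a range of 5.11e-05 to 0.106. The median of the 52 genes was log2 0.38, beside 0.03 over all genes, and 48 were above 0.

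The qNSC and pNSC libraries spread most over these genes, and the model gives each gene 1 spread for all 8 fresh populations. The median range between libraries of a group was log2 1.49 in qNSC and 1.53 in pNSC and 0.20 to 0.62 in the other 8 populations. The comparisons among aNSC, NPC1, NPC2, NB1 and NB2 were therefore also fitted on these 5 populations alone, an alternative added after seeing the data. For NPC1 against aNSC that fit called 29 of the 52 genes higher and 0 lower, against 17.4% and 13.5% of 16696 genes. The largest were Cdca8 (log2 0.83), Cenpa (0.81), Birc5 (0.81), Aurka (0.78), Cdc25c (0.78) and Ube2c (0.75). Mki67, Foxm1, Ccna2, Ect2 and Pttg1 were not among them, at 0.16, 0.07, -0.22, -0.23 and -0.07.

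From NPC1 to NPC2 only Ccnb1 was called, 1 of 52 higher and 0 lower, against 0.202% and 1.14% of all genes. Ccnb1 stood at 8.21, 8.05, 8.06 and 7.96 in NPC1 and 8.94, 9.08 and 8.88 in NPC2, 1.86-fold higher with no overlap (log2 0.9, SE 0.191, adjusted p 0.0157). Its call ended without NPC1 replicate 4 (0.0565), NPC2 replicate 1 (0.0707) or NPC2 replicate 2 (0.0794), over a range of 2.11e-05 to 0.0794. With the 5 populations fitted, 11 were higher and 0 lower, against 1.89% and 4.55% of all genes. Those 11 were Ccnb1, the APC/C partners Ube2c (0.86) and Cdc20 (0.7), Ccnf (0.84), Plk1 (0.7), Aurka (0.56), Ect2 (0.47), Ccna2 (0.45), Bub3 (0.45), Bub1b (0.44) and Racgap1 (0.25). Cdc20 was at 8.15, 8.25, 8.25 and 8.09 in NPC1 and 8.88, 8.96 and 8.82 in NPC2. Plk1 was at 7.38, 7.37, 7.36 and 7.31 in NPC1 and 8.05, 8.12 and 8.0 in NPC2. In both genes every NPC2 library lay above every NPC1 library. The chromosome protein genes Mki67 (-0.56, adjusted p 0.173), Smc4 (-0.31, 0.277), Smc2 (-0.23, 0.342) and Top2a (0.14, 0.58) did not pass.

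Between NPC2 and NB1 0 of the 52 genes were called higher and 0 lower by limma, against 3.78% and 3.88% of all genes; Nde1 (-0.58, adjusted p 0.0519) and Bub3 (-0.34, 0.24) were the 2 members with an unadjusted p under 0.05. The median was -0.14, beside 0 over all genes. With the 5 populations fitted, 1 was higher (Tacc3, 0.33) and 7 lower, against 10.6% and 10.5% of all genes. The 7 were Plk1 (-0.61), Pttg1 (-0.6), Nde1 (-0.58), Bub1b (-0.45), Ccna2 (-0.45), Top2a (-0.42) and Ccnb1 (-0.37). Plk1 was at 7.42, 7.45 and 7.48 in NB1, below every NPC2 library.

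The first neuroblast population was also set against activated stem cells. Of the 52 genes, 11 were higher in NB1 than in aNSC and 1, Pttg1, was lower, against 14.1% and 14.6% of all genes. The APC/C partners Ube2c (2.77-fold, adjusted p 0.017) and Cdc20 (2.19-fold, 0.00887), the centromeric histone Cenpa (2.47-fold, 0.00194), the kinase Aurka (2.13-fold, 0.0299) and the spindle gene Nusap1 (1.99-fold, 0.0429) led the 11. Ccnf (2.34-fold) and Cdc25c (2.12-fold) changed more than Nusap1 but were not called. Both passed in limma with the 5 populations fitted (adjusted p 4.21e-06 and 2.89e-07). Birc5, Cdk1, Cdca8, Ccnb1, Tacc3 and Prc1 were higher by log2 0.63 to 0.97. Cenpa was at 7.11, 6.77, 6.98 and 7.06 in aNSC and 8.25, 8.1 and 8.5 in NB1. Ube2c was at 7.64, 7.08, 7.65 and 7.52 in aNSC and 8.94, 8.79 and 9.1 in NB1. Neither gene overlapped between the groups. With the 5 populations fitted 28 were higher and 1 lower, against 25% and 22.4% of all genes. The call of Pttg1 (adjusted p 0.0388) ended without aNSC replicate 2, 3 or 4 or NB1 replicate 1 or 2 (up to 0.145) and with moderation lacking trend and robust (0.0521), over a range of 1.06e-05 to 0.145. Without NB1 replicate 3 the count of 11 fell to 4, and without aNSC replicate 2 to 6. The kinesins left out of the set gave 3 of 12 higher and 0 lower, while the S phase list gave 0 of 48 higher and 3 lower.

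From NB1 to NB2 all 52 genes were lower, and 48 were called lower and 0 higher, against 14.2% and 10.4% of all genes. None of the 52 had overlapping libraries, but the share of all genes without overlap was not counted. The median fall was 4.76-fold (log2 -2.25), beside -0.03 over all genes. Ccnb1 fell from 8.54, 8.55 and 8.71 in NB1 to 6.01, 5.86 and 5.94 in NB2, 6.33-fold lower (SE 0.204 log2, adjusted p 1.22e-09). Cdk1 fell from 8.04, 8.03 and 8.36 to 5.66, 5.64 and 5.45, 5.9-fold lower (adjusted p 1.51e-07). Hmgb2, a chromatin protein gene, was at 9.88, 9.9 and 10.45 in NB1 and 7.45, 7.18 and 7.04 in NB2, the largest fall of the 52 (7.23-fold, adjusted p 3.49e-08). Prc1 (6.57-fold) and Aurkb (6.41-fold) followed.

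The smallest falls were those of the condensin gene Ncapd2 (2.5-fold), Cdc25b (2.62-fold) and Bub3 (2.69-fold). Mybl2 (-2.43, adjusted p 0.0605), Ckap2l (-2.26, 0.0523), Ttk (-2.15, 0.141) and Ccnf (-1.83, 0.12) did not pass, although Mybl2 went from 6.69, 6.53 and 6.57 to 4.18, 4.1 and 4.21 with no overlap. The spread fitted for these genes also takes in qNSC. There Mybl2 and Ttk held floor values of -4.19, Ckap2l of -2.18 and Ccnf of -2.18 and -4.19. All 52 passed with the 5 populations fitted; over the alternatives the adjusted p of Mybl2 ran from 9.25e-12 to 0.133, that of Ckap2l from 2.9e-12 to 0.118, that of Ttk from 2.84e-11 to 0.259 and that of Ccnf from 8.54e-08 to 0.234.

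NB2 did not return to the qNSC level. Against qNSC, 48 of the 52 genes were higher in NB2 and 2 lower, beside 39.4% and 28.8% of all genes, with a median of 7.93-fold (log2 2.99) against log2 0.3 over all genes. Ccnb1 was 12.9-fold higher (SE 0.191 log2, adjusted p 6.94e-15) and Mki67 8.42-fold (2.09e-08). Pttg1 and Nde1 were lower, by log2 -4.62 and -2.46. Cdc25b (-0.05, adjusted p 0.896) and Espl1 (0.57, 0.238) did not pass. Espl1 passed with library weights (0.0183) and without NB2 replicate 1 (0.035), over a range of 0.0183 to 0.646. With only the groups compared in the fit, 47 of the 52 were higher in NB2 and 2 lower, among 11074 called of 16670 genes. The comparisons of pNSC, NB2 and Other with qNSC share the 4 qNSC libraries.

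Pttg1 ran against the other members. It stood at 7.29, 6.73, 7.17 and 6.93 in qNSC, 5.85, 6.36, 6.83 and 6.48 in pNSC and 5.05, 5.36, 5.26 and 5.07 in aNSC, and it was 2.29-fold lower in aNSC than in pNSC (SE 0.269 log2, adjusted p 0.000673). NPC1 held 5.19, 5.29, 5.01 and 4.96, NPC2 4.61, 5.43 and 4.91, NB1 4.28, 4.15 and 4.72 and NB2 2.68, 2.07 and 2.49. In order of group mean the level of Pttg1 went from qNSC (7.03 ± 0.251, SD, n = 4) through pNSC, DFFDA_H, DFFDA_L, Other, aNSC, NPC1, NPC2 and NB1 to NB2 (2.41 ± 0.311, n = 3). Neighbours in that order overlapped between libraries except DFFDA_H with DFFDA_L and NB1 with NB2, and every NB2 library lay below every library of the other populations. Of the 52 genes it was the only one whose 10 group means correlated negatively with the mean of the other members (r = -0.46, a description over 10 populations). In the mouse annotation Pttg1 (ENSMUSG00000020415, GRCm38, chr11:43420250-43426251, minus strand) overlapped no other gene's exon.

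Nde1 (r = 0.454), Cdc25b (0.65) and Espl1 (0.722) had the next lowest correlations over the 10 group means. Nde1 stood at 7.49, 7.56, 7.51 and 7.64 in aNSC, 7.39, 7.54, 7.52 and 7.58 in NPC1, 7.87, 8.03 and 7.73 in NPC2, 7.32, 7.19 and 7.37 in NB1 and 4.98, 4.98 and 4.51 in NB2. Its level was thus high in every stem cell and progenitor population, qNSC included, and low in NB2, 5.55-fold below NB1 (adjusted p 7e-10). Nde1 (ENSMUSG00000022678, chr16:14163275-14192928) shares exon sequence with Marf1 on the opposite strand, and this library kit does not mark strand, so reads of the 2 genes cannot be told apart there. Among the other members, 17 in all, Nde1 included, overlap an exon of another gene, 13 of them on the opposite strand, Cdc20 (with Elovl1) and Ube2c (with Tnnc2) among these. Ccnb1 and Ccnb2 have named pseudogenes, whose share of reads is uncertain.

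**Figure D3:**
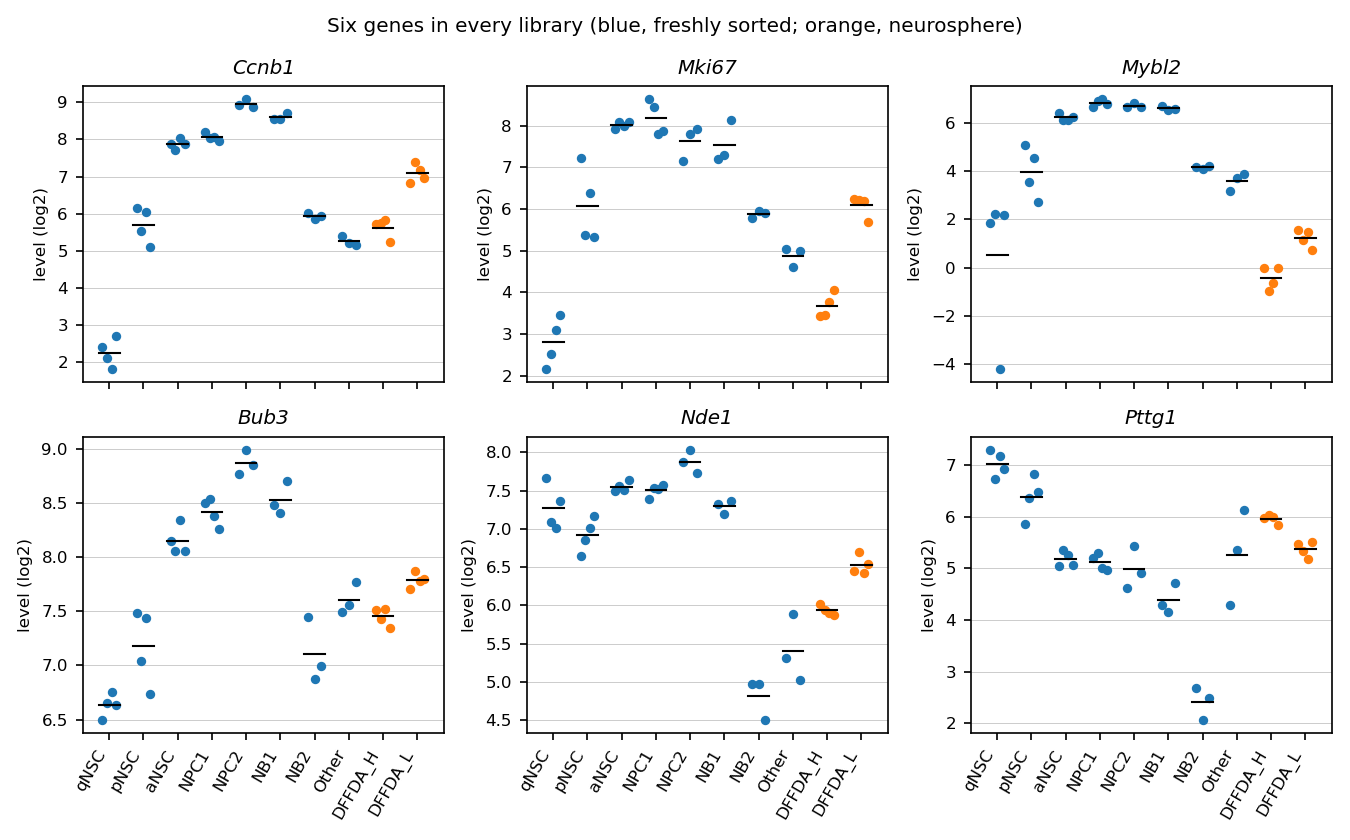
Log2 level of 6 genes in every library (points; blue, freshly sorted; orange, neurosphere) with group means (black lines). Ccnb1, Mki67 and Mybl2 are lowest in qNSC among the fresh populations, Bub3 has a shallow range, and Nde1 and Pttg1 are lowest in NB2.

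The transcription factor genes Foxm1 and Mybl2 ran alongside the other members in the fresh populations. Foxm1 was at 2.64, 3.0, 1.87 and 1.48 in qNSC, 6.62, 5.27, 5.31 and 4.36 in pNSC and 7.09, 7.03, 6.95 and 7.26 in aNSC, 8.84-fold higher at the first step (adjusted p 2.09e-06) and 3.23-fold at the next (0.000871). Mybl2 was at 1.85, 2.21, -4.19 (the floor) and 2.19 in qNSC and 5.06, 3.53, 4.53 and 2.73 in pNSC (adjusted p 0.0035, and 0.105 with only the groups compared; 3.84e-05 to 0.105 over the alternatives).

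Libraries within NPC1 and NB1 fell into unlike pairs for several members. Foxm1 was at 6.52 and 6.61 in NPC1 replicates 1 and 2 and at 7.72 and 7.77 in replicates 3 and 4, and at 7.8, 7.8 and 6.52 in NB1. Mki67 went the opposite way, at 8.63 and 8.44 against 7.8 and 7.88 in NPC1 and 7.2, 7.3 and 8.14 in NB1. Cenpf, a large kinetochore protein gene, moved with Mki67 (8.14, 7.87, 7.12 and 7.16 in NPC1, then 7.54, 7.49 and 8.3 in NB1). Espl1 moved with Foxm1 (5.34, 5.51, 6.37 and 6.44, then 6.07, 6.22 and 5.23). NPC2 replicate 1 was likewise low in Mki67 (7.16 against 7.8 and 7.93) and high in Foxm1 (7.65 against 7.15 and 7.43). The labels name no batch, and what these libraries share was not tested.

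Set against S phase genes, the members gained ground late in the sequence. The mean of the 52 genes minus the mean of 48 S phase genes, per library, was -0.22 to -0.1 in aNSC, -0.03 to 0.11 in NPC1, 0.27 to 0.34 in NPC2 and 0.42 to 0.49 in NB1 (log2). These 4 populations did not overlap. It was 0.21 to 0.25 in NB2, -0.8 to -0.23 in qNSC and -0.01 to 0.23 in pNSC. Other lay at -0.45 to -0.28, DFFDA_H at -0.22 to -0.08 and DFFDA_L at 0.18 to 0.22. The differences between 2 gene lists are descriptions of these libraries, with no test.

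**Figure D4:**
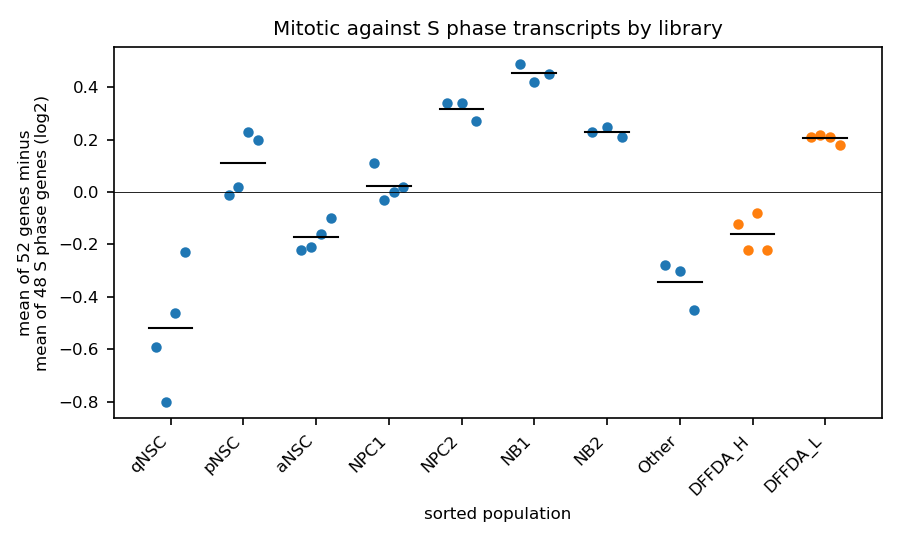
Mean log2 level of the 52 genes minus that of 48 S phase genes in each library (points; blue, freshly sorted; orange, neurosphere), with group means (black lines). The values step up from aNSC to NB1, where they reach 0.42 to 0.49, and DFFDA_L lies above DFFDA_H.

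Other genes of the same pathway were counted in the same steps, beside 14.2% of all genes higher and 8.06% lower at the first and 14.2% lower and 10.4% higher at the last. From qNSC to pNSC, 42 of 46 other mitotic genes rose and 0 fell (Depdc1b by log2 4.43 and Stil by 4.3), with all 12 mitotic kinesins (Kif11 by 4.1) and 45 of 48 S phase genes. From NB1 to NB2, 40 of the 46, 9 of the 12 kinesins and 42 of the 48 fell, with none rising. Of the APC/C list, 7 of 16 genes rose at the first step and 5 fell at the last, and the largest change both times was in Fbxo5, which encodes the APC/C inhibitor EMI1 (log2 2.85 and -2.06). Of 10 genes of the DREAM and MuvB list, 4 rose from qNSC to pNSC and 2 fell, the largest rise in the MuvB subunit gene Lin9 (2.77). Of 12 mitotic entry brakes and CDK inhibitors, 10 rose at that step and 0 fell, Chek1 by 4.26 and Cdkn1a by 2.67.

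Among the genes outside the set whose group means were most like the members' mean were Itgae and Ska1 (r = 0.995), Cep55 (0.993), Nek2 and Melk (0.992), Mcm10, Cenpn and Cdca2 (0.991) and Haspin (0.99), over 10 populations and among the 10809 genes compared. The integrin gene Itgae holds Haspin, a mitotic histone kinase gene, inside an intron on the opposite strand, and their levels ran side by side (-0.25 and -0.94 in qNSC, 5.36 and 5.28 in NPC1). Reads from the 2 genes cannot be told apart by strand, but their annotated exons did not overlap. Whether reads of either gene were counted for the other was not tested. Of the 100 genes most like the members' mean, 29 were members. Each member is part of that mean, so its high rank was in part built in.

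The population labelled Other is not named by cell type. Against qNSC it had 48 of the 52 genes higher and 4 lower, beside 36.2% and 30.8% of all genes, with a median of 5.94-fold (log2 2.57) and 0.14 over all genes. Ccnb1 was at 5.39, 5.22 and 5.16, 8.02-fold above qNSC (adjusted p 7.32e-13), and Cks1b, a small CDK partner, was at 6.07, 6.23 and 6.69, 16.7-fold above it (4.84e-12). The 4 lower genes were Espl1 (-2.11), Nde1 (-1.87), Pttg1 (-1.78) and Cdc25b (-1.6). With only the groups compared in the fit, 42 of the 52 were higher in Other and 4 lower, among 9678 called of 16342 genes. Endothelial markers summed to log2 9.76 to 11.25 in Other against 2.97 to 4.1 in qNSC, mural cell markers to 7.21 to 10.93 against 7.1 to 7.45, neuroblast markers to 12.86 to 13.35 against 7.64 to 8.3 and microglia markers to 9.59 to 10.42 against 8.42 to 9.8. The mural sum in qNSC was mostly Pdgfrb, and the mean over the mural markers was log2 4.383 in Other and 0.835 in qNSC. Each of the 10 endothelial genes was called higher. Which of these cells held the mitotic transcripts was not tested.

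In the neurosphere cultures, DFFDA_H had 51 of the 52 genes lower than DFFDA_L and 1, Pttg1, higher, against 22.3% and 21.6% of 15956 genes. The median was 2.92-fold lower (log2 -1.55), beside -0.01 over all genes. No member's libraries overlapped, but the share of all genes without overlap was not counted. Mki67 was at 3.44, 3.45, 3.77 and 4.05 in DFFDA_H and 6.25, 6.22, 6.2 and 5.69 in DFFDA_L, 5.32-fold lower (SE 0.164 log2, adjusted p 5.76e-07). Plk1 was at 4.07, 4.1, 3.84 and 4.14 against 5.89, 5.99, 5.87 and 6.03, 3.75-fold lower (1.77e-07). The kinetochore genes Cenpe (5.12-fold) and Cenpf (4.17-fold) were the next largest after Mki67. The smallest falls were in Bub3 (1.27-fold, adjusted p 0.00244), Ckap2 (1.49-fold) and Nde1 (1.51-fold). Pttg1 was at 5.98, 6.03, 6.0 and 5.83 in DFFDA_H and 5.48, 5.34, 5.18 and 5.51 in DFFDA_L, 1.5-fold higher (SE 0.0978 log2, adjusted p 0.000394). In this comparison too it was the member that ran against the rest. Astroglial and stem cell markers differed as well, 7 of the 13 tested being higher in DFFDA_H and 2 lower (Aqp4 by log2 4.17 and Apoe by 3.76 higher), with sums of 12 to 12.22 against 11.35 to 11.55. The 3 oligodendrocyte precursor markers tested were lower in DFFDA_H (Pdgfra by -2.76), with sums of 6.73 to 7.05 against 7.26 to 8.34 over the list of 7. Their part in the members' difference was not tested.

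DFFDA_L and aNSC were compared as the populations with the most mitotic transcripts in culture and in the stem cell labels; culture and group cannot be told apart. Of the 52 genes 0 were higher and 41 lower in DFFDA_L, against 31.4% and 38.7% of 19158 genes, with a median of log2 -1.37 beside -0.19 over all genes. The members split widely. Mybl2 was at 1.56, 1.13, 1.47 and 0.75 in DFFDA_L against 6.4, 6.13, 6.13 and 6.24 in aNSC, 31.9-fold lower (SE 0.74 log2, adjusted p 4.31e-07). Espl1 (11.1-fold), Hmgb2 (10.4-fold), Foxm1 (8.82-fold) and Incenp (6.85-fold) came next. Foxm1 was at 4.4, 3.85, 4.04 and 3.48 in DFFDA_L and 7.09, 7.03, 6.95 and 7.26 in aNSC. In both genes every DFFDA_L library lay below every aNSC library.

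At the other end, Cks1b was at 7.31, 7.52, 7.62 and 7.4 in DFFDA_L and 7.62, 7.14, 7.22 and 7.19 in aNSC, overlapping, with a difference of 0.17 (SE 0.242, adjusted p 0.542). Pttg1 (0.19, 0.494), Birc5 (-0.2, 0.455), Cdc25c (-0.17, 0.721) and Ckap2 (-0.16, 0.806) did not pass either, and Cenpa was the highest at 0.42 (0.145). Cdk1 (-0.44, 0.0702), Ccnf (-0.36, 0.637), Plk1 (-0.82, 0.208), Anln (-0.93, 0.135) and Ccnb2 (-0.99, 0.0892) also did not pass; with only the groups compared in the fit these 5 passed as lower and Cenpa as higher, at 0.00227, 0.0305, 2.44e-06, 8.5e-05, 1.19e-05 and 0.00171. In the same order, the ranges over the alternatives were 0.00227 to 0.154, 0.0305 to 0.763, 2.44e-06 to 0.279, 8.5e-05 to 0.225, 1.19e-05 to 0.178 and 0.00171 to 0.273. Cdk1 also passed without aNSC replicate 2 (0.0494). The call of Ube2c as lower (-0.93, 0.0298) ended when DFFDA_L replicate 1, 2 or 4 or aNSC replicate 1, 3 or 4 was left out (up to 0.0639; from 8.95e-06 over the alternatives). That of Ckap2l (-1.6, 0.0337) ended without DFFDA_L replicate 1, 3 or 4 or aNSC replicate 1, 2 or 4 (up to 0.0616; from 3.06e-09). The call of Bub3 (-0.36, 0.0126) ended without aNSC replicate 3 (0.0545, the range being 0.000579 to 0.0545).

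**Figure D5:**
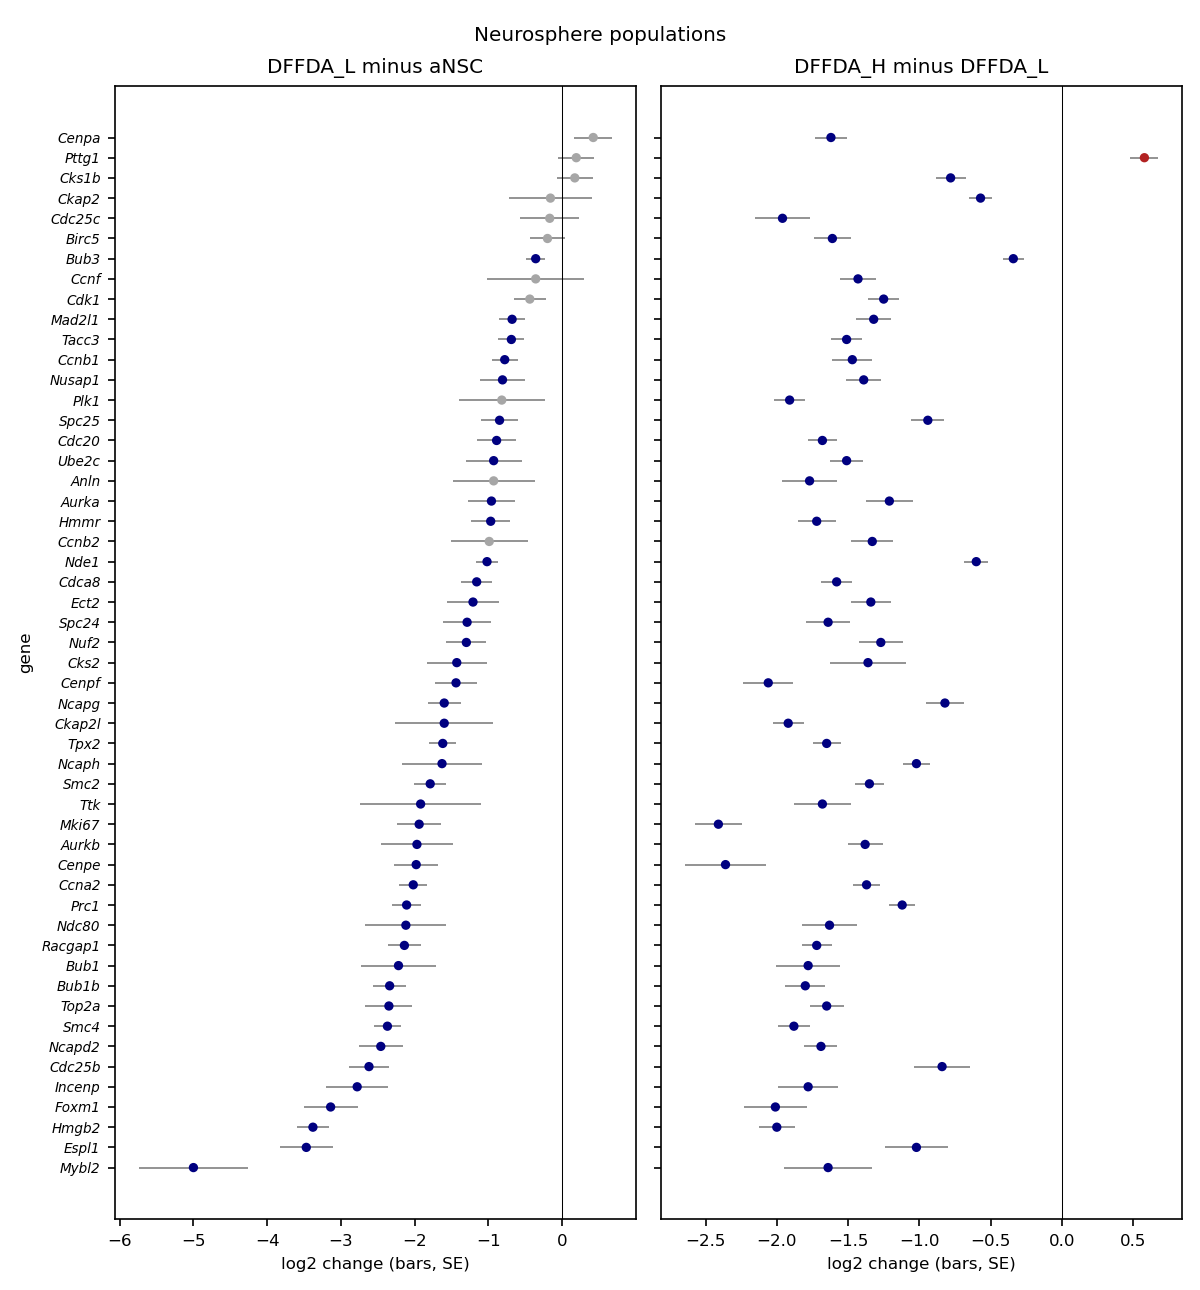
Log2 change (points) with its SE (bars) of each of the 52 genes in DFFDA_L minus aNSC (left) and DFFDA_H minus DFFDA_L (right), in the order of the left panel; red was called higher, navy lower and grey neither. Mybl2, Espl1, Hmgb2 and Foxm1 lie lowest on the left, and Pttg1 is the member above 0 on the right.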

How the data were processed

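Poly(A) RNA of 36 libraries was made with a SMARTer Ultra Low kit and Nextera XT and sequenced on an Illumina sequencer, per the labels' protocols. Per the submitters' processing notes, the tools included HISAT2, featureCounts, limma, Trimmomatic, cutadapt and FastQC, with the builds GRCm38 and mm10; their versions and order were not stated there. As deposited by the authors, the expression table holds log2 values of 19909 genes. That the values are log2 of a quantity scaled to a common total was read from the values: antilogs summed to 987637 to 987910 and the highest value was 13.26 in each library, which hides any difference in RNA content between cells. Reads per library are unknown, and their number limits the precision of low values. The 1770 blank lines were dropped.

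Linear models were fitted with limma 3.58.1 (R 4.3.3, moderated with trend and robust) to genes that reached log2 0 in 3 or more libraries of the same group. The 28 fresh libraries (17788 genes), the 8 neurosphere libraries (15956) and, for DFFDA_L against aNSC, all 36 (19158) were fitted separately, with Benjamini-Hochberg adjustment over all genes and a threshold of 0.05. The fits were run on simulated data in which each gene had the same spread in every group. That simulation could not check calls where the groups differ in spread, as qNSC and pNSC did from the others. Genes named are the 52 members, and from other lists those with the largest changes. A gene among those most like the members is not reported here. The members and lists were chosen with earlier results of these data known. Between pNSC and aNSC the deviations of same-numbered libraries from their group means correlated at 0.244, 0.144, 0.196 and 0.22. The replicate numbers may thus pair these groups, which the labels do not say. The tests given for aNSC against pNSC used group means only and no pairing. The replicate block was fitted over all 8 fresh populations, so it was not a paired test of pNSC and aNSC. Alternatives changed the filter, centring, values below 0, moderation, library weights, groups fitted, a replicate block and each library left out.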

Additional observations from a re-analysis of the deposited data

Results flagged for a closer look

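For 13 sets of 4 libraries of a group, 1 library lay far from the other 3 for a member, by Dixon's test at the 95% level. All 52 members and their mean were tested in the groups of 4, in 318 sets, and chance alone marks about 1 in 20. The value of the nearest other library follows in brackets. In qNSC, replicate 1 held Aurkb at log2 -2.18 (1.8) and Ckap2l at -2.18 (3.61), both at the floor, and Top2a at 2.02 (4.27). Replicate 2 held Hmmr at 1.15 (2.85), and replicate 3 held Mybl2 at -4.19 (1.85), its floor. In pNSC, replicate 4 held Smc4 at 5.97 (7.05). In aNSC, replicate 1 held Cks1b at 7.62 (7.22) and Ncapg at 6.71 (6.92). In NPC1, replicate 2 held Ncaph at 7.76 (7.53). In the neurospheres, DFFDA_L replicate 4 held Mki67 at 5.69 (6.2), DFFDA_L replicate 2 held Tpx2 at 6.83 (6.62), DFFDA_H replicate 3 held Bub1b at 3.81 (3.43) and DFFDA_H replicate 4 held Cdc25b at 2.67 (2.13).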

How the results depend on the processing

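No member changed direction with a call under any alternative, and the falls from NB1 to NB2 and from DFFDA_L to DFFDA_H and the rises from qNSC to pNSC to aNSC kept their counts within 1.5 times. Counts among the progenitors depended on which libraries set the spread; the cause was not tested. With library weights, members called were 18 higher for NPC1 against aNSC (median log2 0.32), 7 for NPC2 against NPC1, 1 higher and 9 lower for NB1 against NPC2, 24 higher and 3 lower for NB1 against aNSC, 1 higher for DFFDA_L against aNSC and 0 below the midpoint. With only the groups compared fitted they were 31, 8, 1 and 6, 32 and 3, 1, and 0 above the midpoint. With 5 populations fitted, chosen after seeing the data, they were 29 for NPC1 against aNSC, 11 for NPC2 against NPC1, 1 and 7 for NB1 against NPC2 and 28 higher for NB1 against aNSC. Moderation without trend and robust gave 1 higher for NPC1 against aNSC and 0 lower for NB1 against aNSC. NB1 against NPC2 gave 1 lower with a mean of at least 4 and with values below 0 set to 0. The homology region, alone or with CCAAT, was in 43.2% and 43.2% of members in the 250 bases before the start. Leaving out each library gave 0 to 1 lower for pNSC against qNSC; 2 to 10 above and 1 to 2 below the midpoint; 1 to 2 higher for NPC1 against aNSC (median 0.31 to 0.41); 0 to 1 for NPC2 against NPC1; 4 to 10 higher and 0 to 1 lower for NB1 against aNSC; and medians of -0.2 to -0.11 for NB1 against NPC2, -2.27 to -2.2 for NB2 against NB1 and -1.43 to -1.26 for DFFDA_L against aNSC.

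Outside pNSC with aNSC, the correlation of same-numbered libraries did not exceed 0.1 in every pair of any 2 groups, so the numbers were not taken to pair them; over all 94 pairs of libraries it ran from -0.632 to 0.491 (median 0.052), with 31 over 0.1, and in DFFDA_H with DFFDA_L it was 0.072, 0.491, 0.384 and 0.192. The replicate block, fitted over all 8 fresh populations, changed no member's call in aNSC against pNSC. With the replicate block, NB1 against NPC2 gave 1 lower member (Nde1, adjusted p 0.0441), Cenpa was called in NPC1 against aNSC (0.0415), and Nusap1 (0.0598) and Prc1 (0.0808) in NB1 against aNSC and Foxm1 (0.0755) in Other against qNSC were not. Over all genes, calls went with library weights, only the groups compared and 5 populations from 2262 to 5983, 5080 and 5168 for NPC1 against aNSC, from 239 to 2180, 578 and 1076 for NPC2 against NPC1, from 1364 to 6234, 2888 and 3527 for NB1 against NPC2, from 4371 to 9015, 6690 and 7362 for NB2 against NB1 and from 5104 to 9721, 7843 and 7898 for NB1 against aNSC. For pNSC against qNSC, 3959 calls became 2234 with weights, 1511 with only the groups compared and 2432 without pNSC replicate 1, and the share called higher, 63.8%, became 53.2% with values below 0 set to 0 and 78.9% with weights. For NPC2 against NPC1 that share went from 15.1% to 38.1%, 27.9% and 29.4%. For the midpoint it went from 66.1% to 84.2% with only the groups compared. Without single libraries, calls were 1337 for NPC1 against aNSC (without NPC1 replicate 1), 80 to 125 for NPC2 against NPC1 and 764 to 885 for NB1 against NPC2 where they moved by over 1.5 times. A stricter filter (mean of at least 4), under which fewer genes are tested, gave 5314 calls against 8585 for aNSC against pNSC, 3182 against 5104 for NB1 against aNSC, 6672 for NB2 against qNSC, 6623 for Other against qNSC, 4318 against 6995 for DFFDA_H against DFFDA_L and 6551 for DFFDA_L against aNSC. Reads per library are unknown, and values at the floor, 13 members in qNSC, give no level below it.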
